A study of Mus musculus with 2 samples.

Results

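PU.1, the MITF/TFE factors, the C/EBP factors and the RUNX factors were examined in wild-type mouse bone marrow cells cultured with M-CSF alone (M) or with M-CSF and RANKL (MR). The 10 genes are Spi1, which encodes PU.1, Mitf, Tfeb, Tfe3 and Tfec, then Cebpa, Cebpb and Cebpd, and Runx1 and Runx2. They were chosen by name, and all 10 had their own assembled locus in each library, out of 14879 genes to which an assembled locus was given in M or MR. The dose of M-CSF was 20 ng/mL and that of RANKL was 100 ng/mL. For MR the labels describe 2 days with M-CSF followed by 2 days with both, while the bone marrow culture method gives 3 days with RANKL. For M, 2 first days with M-CSF and 0 days with RANKL were recorded. Whether M was cultured as long as MR is not recorded, so a difference in culture time could not be told apart from RANKL. The strain, age and number of mice behind the libraries are not given in the sources used here. Each condition is 1 library, so that no difference below has a replicate check and no p-value was computed.

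Osteoclasts are bone-resorbing cells that form when precursors of the monocyte and macrophage lineage receive M-CSF and RANKL. PU.1 is an ETS family transcription factor that the macrophage and osteoclast lineages require, among others for the genes of the receptors for M-CSF and RANKL. MITF, TFEB, TFE3 and TFEC are related basic helix-loop-helix leucine zipper factors that bind DNA as homodimers or as heterodimers with each other, and in osteoclasts MITF acts with PU.1 on genes such as Acp5 and Ctsk. C/EBPα, C/EBPβ and C/EBPδ are basic leucine zipper factors of myeloid differentiation and of inflammatory gene expression. RUNX1 is a haematopoietic factor and RUNX2 is best known in osteoblasts, and both bind DNA together with CBFβ.

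The deposited values are TPM (transcript abundances), in which each assembled locus is scaled for its length and for the total of its library. Reads amounted to 3.63 Gb of aligned bases in M and 2.98 Gb in MR, as estimated from the deposited coverage and FPKM. Each log2 ratio compares the TPM of MR plus 1 with the TPM of M plus 1. Over the 13467 genes that reached a TPM of 1 in M or MR the median log2 ratio was 0.21, against which the values below can be read. Median-of-ratios scaling over 11874 genes shifts log2 ratios down by 0.19, less at low levels because of the added 1, and the median of all genes is then 0.03. The intervals given are 95% Wilson intervals on estimated numbers of read pairs, and they cover counting error only. In these bulk cultures, fewer cells of a type and less RNA per cell cannot be told apart.

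The labelled cell states were checked on markers. The summed TPM of 9 osteoclast markers was 146 in M and 25160 in MR. In M, 4 of the 9 (Dcstamp, Ocstamp, Oscar and Calcr) had no locus, while none of the 9 was at 0 in MR. The sum of 6 macrophage markers was 21286 TPM in M and 7802 TPM in MR, and most of it was Lyz2, whose locus is shared with another gene. These markers did not move alike. Csf1r was higher in MR, with 697 TPM in M and 872 TPM in MR, and Cd68 had 2607 and 2171 TPM. The sum of 8 neutrophil markers was 1480 TPM in M and 965 TPM in MR, with 0 of the 8 at 0 in either library. Markers of erythroid, B, T, mast and basophil, and stromal and osteoblast cells summed to 18.3 TPM or less per list in each library.

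The RNA of Spi1 was higher with RANKL, and that of Cebpa and Cebpb was lower. The MITF/TFE family had a nearly equal total TPM, in which Tfec took a larger share and Tfe3 a smaller one. With a log2 ratio above 1 as the limit, 1 of the 10 factors (Tfec) was above it, against 21.2% of all genes. Below -1 there were 2 of the 10 (Cebpa and Cebpb), against 13.2% of all genes. The other 7 lay between, and 34.5% of all genes passed the limit in either direction. The median log2 ratio of the 10 was 0.00, with 5 higher and 5 lower in MR and a range from -1.91 to 1.05. For 5 of the 10 (Spi1, Tfe3, Tfec, Cebpa and Cebpb) the counting interval did not contain equal levels.

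How firmly each ratio can be read follows from the estimated read pairs, the smaller of the numbers that FPKM and coverage give. They were 1775 in M and 2396 in MR for Spi1. Cebpa had 1938 and 400, and Cebpb had 1433 and 419. Tfe3 rested on 687 and 501 pairs and Tfec on 140 and 230. Fewer pairs lay behind Runx1, with 160 and 126, and behind Cebpd, with 96 and 86. Tfeb had 34 in M and 192 in MR, Mitf 21 and 19, and Runx2 18 and 14. From FPKM alone the numbers were 283 and 192 for Tfeb and 183 and 189 for Mitf. The wide intervals of Tfeb and Mitf thus rest on taking the smaller number, and they do not show that depth was the limit. For Runx2, differences smaller than its wide interval were not detectable at this depth.

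**Figure D1:**
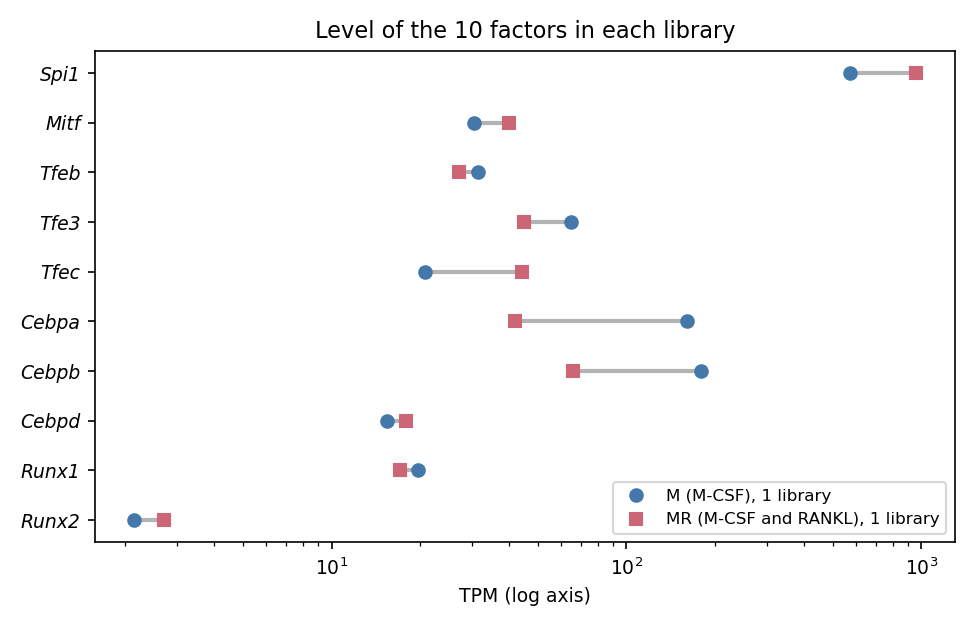
Level of each of the 10 factors in the M library (circles) and the MR library (squares), in TPM on a log axis, with a grey line joining both values of a gene. Spi1 is the highest in both libraries, at 571 and 956 TPM, and Cebpa and Cebpb show the widest gaps, with the square to the left.

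Spi1 lies on the plus strand of chromosome 2 from 91082390 to 91115756 (GRCm38, GENCODE vM21). Its level was 571 TPM in M and 956 TPM in MR. By TPM it was the highest of the 10 factors in both libraries. Of all genes, 98.2% in M and 98.8% in MR had a lower TPM. The ratio of MR to M was 1.67 (interval 1.57 to 1.78), which is a log2 ratio of 0.74. This difference is larger than counting error, and 72.3% of all genes had a lower log2 ratio. It was 0.55 with median-of-ratios scaling. The locus began 16 bases before the annotated gene start in M and at the start itself in MR, and both ended at the same base. The outermost start belongs to a short annotated transcript, so the ends alone do not show which start site was used. The listed coverage of Spi1 is lower than its FPKM corresponds to, 0.27 of it in M and 0.28 in MR, and the cause was not tested. Coverage per aligned Gb gave a ratio of 1.64. In that unit Spi1 was not the highest in M, at 72.1 against 82.9 for Cebpb and 74.1 for Cebpa.

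Cebpa, which encodes C/EBPα, a factor that the granulocyte and monocyte lineages need, lies on the plus strand of chromosome 7 from 35119293 to 35121928. It had 160.2 TPM in M and 41.9 TPM in MR. The level was 3.82-fold lower in MR (interval 3.43 to 4.25), with a log2 ratio of -1.91, and 4.37% of all genes had a lower ratio. Cebpb, which encodes C/EBPβ, a factor of macrophage and inflammatory gene expression, lies on the plus strand of chromosome 2 from 167688915 to 167690418. Its level was 179 TPM in M and 65.8 TPM in MR, which is 2.73-fold lower in MR (interval 2.44 to 3.04) and a log2 ratio of -1.43. Of all genes, 7.68% had a lower ratio than Cebpb. Relative to all genes, 93.5% had a lower TPM than Cebpa in M and 74.3% in MR, and for Cebpb the shares were 94.2% and 82.6%. Both loci lay near an annotated start, with Cebpa 8 and 10 bases after it and Cebpb 62 bases after it in both libraries.

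Cebpd, which encodes C/EBPδ, an acute-phase factor, lies on the plus strand of chromosome 16 from 15887286 to 15891031. It had 15.4 TPM in M and 17.8 TPM in MR, a ratio of 1.16 whose interval (0.867 to 1.55) contained equal levels. Its locus covered 29.7% of the annotated exon bases in M and 29.0% in MR, and it carries no strand, as does that of Cebpb. Spidr, on the opposite strand, overlaps the gene body and had 10.1 TPM in M and 6.98 TPM in MR. Its locus began at base 15889231 and did not overlap the Cebpd loci, which ended at 15888409 in M and 15888394 in MR.

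The 3 C/EBP genes together amounted to 355 TPM in M and 126 TPM in MR, a 2.83-fold lower sum in MR. Cebpa made up 45.1% of this sum in M and 33.4% in MR, Cebpb 50.5% and 52.4%, and Cebpd 4.33% and 14.2%. Cebpb was 11.7 times the level of Cebpd in M and 3.69 times in MR. The macrophage and neutrophil marker sums given above were 2.73-fold and 1.53-fold lower in MR, and their part in the lower Cebpa and Cebpb levels was not tested.

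The promoters of Cebpa and Cebpb are shown because these genes had the lowest log2 ratios of the 10. Each run is the RefSeq window of GRCm38.p6 from 250 bases before to 50 bases after the gene start, written 5′ to 3′ along the gene, at chr7:35119043-35119342 on the plus strand and chr2:167688665-167688964 on the plus strand. Capitals would mark the motifs searched, and neither window holds one. Of its bases, 67.3% are G or C in Cebpa and 80.7% in Cebpb.
Cebpa: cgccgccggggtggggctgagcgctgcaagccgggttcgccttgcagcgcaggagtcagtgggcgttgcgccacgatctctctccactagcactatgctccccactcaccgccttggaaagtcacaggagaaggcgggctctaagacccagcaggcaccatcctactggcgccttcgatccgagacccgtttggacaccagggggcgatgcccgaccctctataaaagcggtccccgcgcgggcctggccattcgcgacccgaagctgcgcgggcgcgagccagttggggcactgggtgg
Cebpb: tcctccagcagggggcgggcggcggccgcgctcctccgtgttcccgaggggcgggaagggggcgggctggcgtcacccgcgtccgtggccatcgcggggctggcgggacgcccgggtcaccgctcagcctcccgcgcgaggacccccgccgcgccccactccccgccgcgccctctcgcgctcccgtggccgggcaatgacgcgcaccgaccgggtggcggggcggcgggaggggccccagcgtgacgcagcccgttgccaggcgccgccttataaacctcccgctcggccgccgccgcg

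The motifs searched on both strands were GGAAGT and GAGGAA for PU.1 and other ETS factors, CACGTG and TCATGTG for MITF/TFE, TTGCGCA and TTGCAAT for C/EBP, and TGTGGT for RUNX. Some words can overlap, GAGGAA with GGAAGT in GGAA and TCATGTG with TGTGGT in TGTG, and CACGTG reads alike on both strands. RefSeq windows were matched for 8 of the 10 genes (not Spi1 and Cebpd), 14 windows in all. A PU.1 or ETS word was in 4 of the 14, against 43.4% of the 32851 mouse windows. The RUNX word was in 5 of the 14 (Mitf, Tfe3, Tfec, Runx1 and Runx2), against 16.8% of all windows. A C/EBP word was in 0 of the 14, against 4.21%. CACGTG was in 1 window, of Runx1, against 7.15% of all windows, and TCATGTG in 1 window, of Runx2, against 3.77%. In that Runx2 window TCATGTG overlaps 1 of 3 RUNX words. A match describes letters in a window of this length and no bound site.

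Tfec (chromosome 6, minus strand, 16833373 to 16898441) encodes the family member that is most restricted to macrophages and osteoclasts. It had 20.7 TPM in M and 44.1 TPM in MR, a ratio of 2.13 (interval 1.73 to 2.62) and a log2 ratio of 1.05. The log2 ratio of 80.1% of all genes was lower. Tfec was the sole factor above a log2 ratio of 1, and it lay close to that limit, at 0.96 from FPKM, 0.90 from coverage per aligned Gb and 0.87 with median-of-ratios scaling. Its locus began 9 bases after the annotated start in M and 11 bases before it in MR, inside the promoter window in both. The 3′ ends were 136 bases apart. In level, 61.5% of all genes were below Tfec in M and 75.2% in MR.

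The promoter window of Tfec, at chr6:16898392-16898691 on the minus strand, is shown for the factor with the highest log2 ratio. Capitals mark the RUNX word on the reverse strand at bases 30 to 35 of the window, GGAAGT at bases 181 to 186 and GAGGAA on the reverse strand at bases 284 to 289. Of its bases, 40.3% are G or C.
Tfec: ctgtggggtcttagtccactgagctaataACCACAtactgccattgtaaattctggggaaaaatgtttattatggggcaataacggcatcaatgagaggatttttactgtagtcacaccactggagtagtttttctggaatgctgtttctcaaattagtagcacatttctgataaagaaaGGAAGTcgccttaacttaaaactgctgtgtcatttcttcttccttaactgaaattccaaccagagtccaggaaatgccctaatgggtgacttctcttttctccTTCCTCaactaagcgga

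Tfe3, a ubiquitous member that regulates lysosomal genes together with TFEB, lies on the plus strand of chromosome X from 7762560 to 7775202. It had 64.7 TPM in M and 44.9 TPM in MR, which is 1.44-fold lower in MR (interval of the ratio of MR to M 0.618 to 0.777) with a log2 ratio of -0.52. In M 84.0% of all genes and in MR 75.6% had a lower TPM. The difference was smaller from coverage per aligned Gb, at a log2 ratio of -0.16. The 5′ end of the locus lay 152 bases after the outermost annotated start in M and 5 bases after it in MR, a gap of 147 bases, and each end lay within 15 bases of an annotated transcript start. The end of the MR locus was inside a RefSeq promoter window of Tfe3, and that of M was 51 bases after the RefSeq start and outside it. Ends of assembled loci follow the outermost reads and do not measure how often a start was used.

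Mitf, the factor mutated in microphthalmia mice with osteopetrosis, lies on the plus strand of chromosome 6 from 97807052 to 98021349. It had 30.5 TPM in M and 39.9 TPM in MR, and the interval of the ratio 1.31 (0.711 to 2.41) contained equal levels. Its listed coverage was 0.11 of that which its FPKM corresponds to in M and 0.10 in MR. The coverage amounts to an estimated 21 read pairs in M and 19 in MR, on which this interval rests. FPKM gives 183 and 189 pairs, and with those the interval would be narrower. Both loci began near the outermost annotated start, at 9 bases before it in M and at the start itself in MR. The gene has several promoters, and the use of those inside it could not be read from the ends.

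Tfeb, a regulator of lysosome formation that RANKL signalling acts on in osteoclasts, lies on the plus strand of chromosome 17 from 47737030 to 47792419. It had 31.4 TPM in M and 27.0 TPM in MR, a ratio of 0.858 whose interval (0.598 to 1.23) contained equal levels. The deposited units disagree for this gene. Coverage per aligned Gb was 1.76 in M and 12.0 in MR, a 6.81-fold higher value in MR (log2 ratio 2.23), where TPM and FPKM were slightly lower. The listed coverage in M was 0.12 of that which the FPKM corresponds to, whereas both were equal in MR, and the cause was not tested. No direction is therefore given for Tfeb. Loci on the opposite strand inside the gene summed to 5.13 TPM in M and 3.62 TPM in MR.

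**Figure D2:**
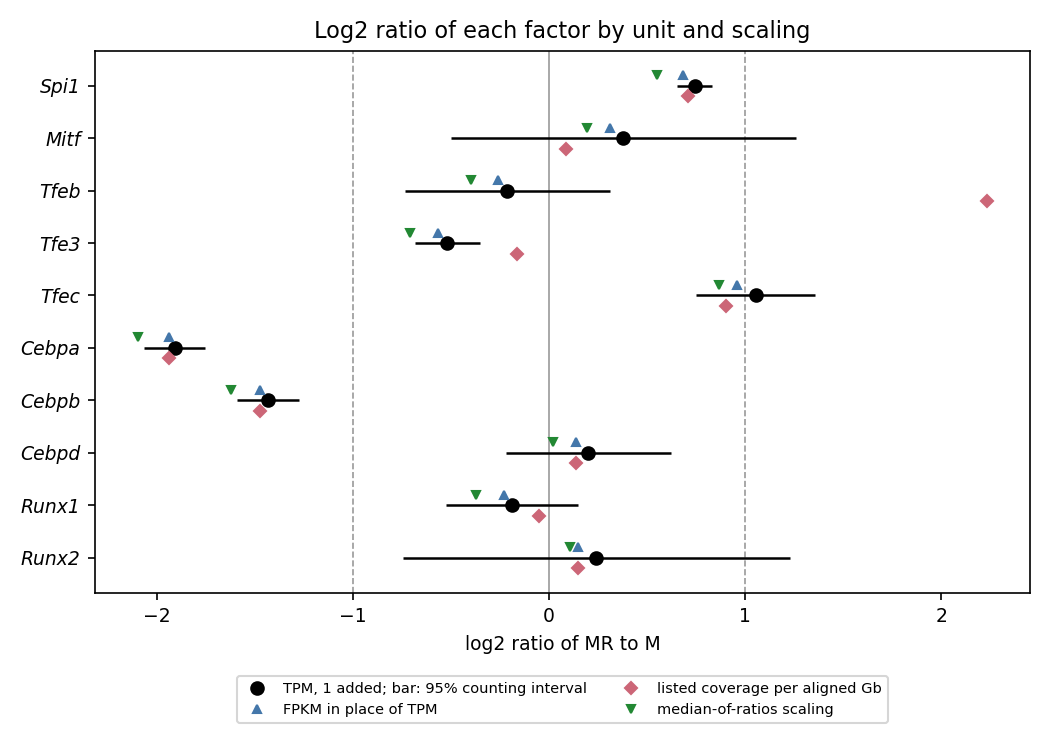
Log2 ratio of MR to M for each factor from TPM with 1 added (black, with the 95% counting interval as a bar), FPKM, listed coverage per aligned Gb, and TPM after median-of-ratios scaling, with dashed lines at -1 and 1. Cebpa and Cebpb lie below -1 in all 4, Tfec lies near 1, and the coverage value of Tfeb, at 2.23, stands apart from its other values.

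As a family the 4 MITF/TFE genes summed to 147 TPM in M and 156 TPM in MR, a ratio of 1.06. Within that sum Tfec went from 14.1% in M to 28.3% in MR and Tfe3 from 43.9% to 28.8%. Mitf made up 20.7% and 25.6%, and Tfeb 21.3% and 17.3%. The shares of Mitf and Tfeb depend on the unit. In coverage per aligned Gb, Mitf had 1.62 in M and 1.78 in MR, and Tfeb had 1.76 and 12.0. By TPM, Tfe3 was 3.12 times the level of Tfec in M. In MR their TPM was nearly equal, with a ratio of 1.02 (interval 0.870 to 1.19). Coverage per aligned Gb did not show this equality, with 19.0 for Tfe3 and 13.0 for Tfec in MR. In M these values were 21.4 and 6.48. The family sum from coverage per aligned Gb was 31.2 for M and 45.7 for MR, a factor of 1.46 that contains the discrepant Tfeb value.

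**Figure D3:**
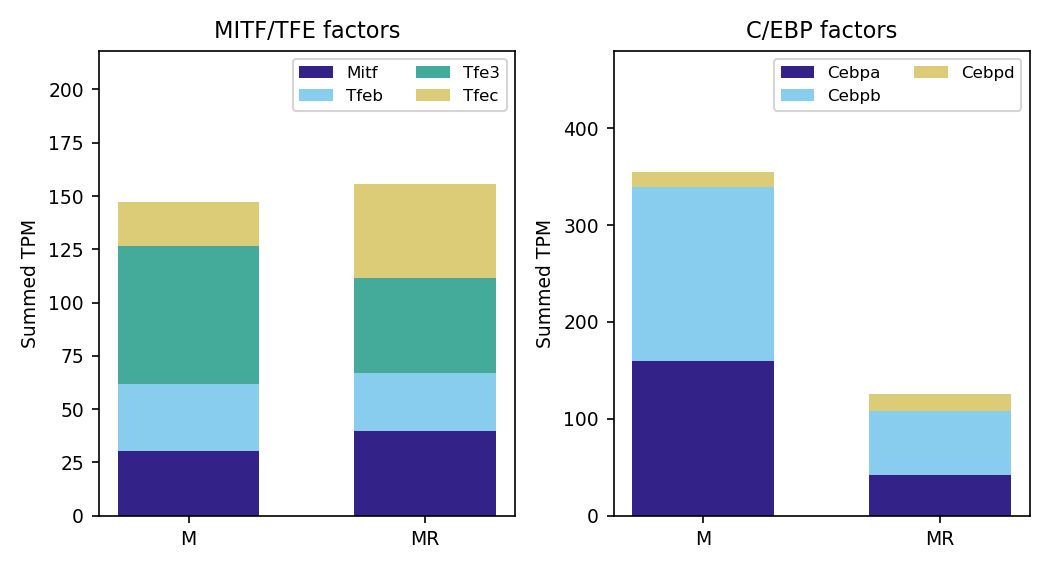
Summed TPM of the MITF/TFE genes (left) and of the C/EBP genes (right) in the M and MR libraries, stacked by gene, on linear axes from 0. The MITF/TFE sum is 147 in M and 156 in MR with a thicker Tfec band in MR, and the C/EBP sum is 355 in M and 126 in MR.

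Runx1 (chromosome 16, minus strand, 92601466 to 92826149) had 19.6 TPM in M and 17.1 TPM in MR, a ratio of 0.870 whose interval (0.689 to 1.10) contained equal levels. Its locus began 101 bases after the outermost annotated start in each library. Loci on the opposite strand inside Runx1, one of them Gm26626, summed to 4.65 TPM in M, and none was assembled in MR. Runx2 (chromosome 17, minus strand, 44495987 to 44814797) was the lowest of the 10, at 2.14 TPM in M and 2.71 TPM in MR, on an estimated 18 and 14 read pairs. The ratio of 1.27 had an interval (0.639 to 2.51) that contained equal levels. The Runx2 loci were fragments, with 16.8% of the exon bases in 1 locus in M and 9.28% and 16.0% in the 2 loci of MR. The 3′ ends of M and MR lay 2365 bases apart, against at most 136 bases for the other 9 factors. The Runx2 loci began 89949 bases after the outermost annotated start in M and 72156 bases after it in MR. Supt3, on the opposite strand, overlaps the Runx2 gene body and had 7.39 TPM in M and 35.9 TPM in MR. The assembled loci of Runx2 and Supt3 did not overlap. Those of Runx2 reached base 44724848 in M and 44742641 in MR, and Supt3 began at 44777280 and 44777323. The sources used here do not say whether reads were counted by strand. Without strand, reads from a stretch that lies in 2 genes cannot be told apart. Of the 6 stromal and osteoblast markers, Sp7, Bglap and Ibsp had no locus in either library. The collagen genes Col1a1 and Col1a2 had 6.63 and 7.36 TPM in M and 10.1 and 8.22 TPM in MR, and Alpl had 1.19 TPM in M and no locus in MR.

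In order of TPM, M ran from Spi1 through Cebpb, Cebpa and Tfe3 to Tfeb, each separated from the next beyond counting error. Tfeb, Mitf, Tfec, Runx1 and Cebpd followed, and no neighbours among these differed beyond counting error, while Runx2 was lower. In MR, Spi1 and Cebpb were again the highest and Runx2 the lowest. Tfe3, Tfec, Cebpa, Mitf and Tfeb came between, and no neighbours among these were separated. Cebpd and Runx1 followed, below Tfeb and not separated from each other. In coverage per aligned Gb the order differed. In M, Spi1 was below Cebpb and Cebpa, and Tfeb (1.76) and Mitf (1.62) were below Tfec (6.48). In MR, Mitf (1.78) was below Runx1 (6.39). By TPM, Spi1 was 3.19 times the level of Cebpb in M and 14.5 times in MR. Against Cebpa the ratio was 3.57 in M and 22.8 in MR. These ratios depend on the unit. In coverage per aligned Gb, Spi1 had 72.1 in M and 118 in MR. Cebpb had 82.9 and 29.2, and Cebpa had 74.1 and 18.6.

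The partners, regulators and targets of the factors were read as fixed lists, each described by its counts above a log2 ratio of 1 and below -1 and by its median beside the all-gene median of 0.21. Of all genes, 21.2% were above 1 and 13.2% below -1. Of each list the genes named first are those with the largest log2 ratios among genes at 5 TPM or more.

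Of the other ETS factors, 16 had a value, with 1 above 1, 3 below -1 and 12 between, and a median of -0.41. Spic, the close relative of PU.1 in red pulp macrophages, was the one above, with 6.01 TPM in M and 19.2 TPM in MR. Fli1, an ETS factor of blood and vessel cells, had 39.0 TPM in M and 7.66 TPM in MR, a log2 ratio of -2.21. Etv5 had 20.2 TPM in M and 6.12 TPM in MR, with a log2 ratio of -1.57. The third below -1, named after its value was seen, was Erg, at 1.79 TPM in M with no locus in MR. Elk1, a target of MAP kinases, had a log2 ratio of -0.87, inside the limit. In all, 12 of the 16 had a lower level in MR, whereas that of Spi1 was higher.

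Among 13 partners and regulators of PU.1, 3 were above 1, 2 below -1 and 8 between, with a median of -0.23. Irf8, which encodes a DNA-binding partner of PU.1 that restrains osteoclast formation, had 155 TPM in M and 25.2 TPM in MR, a log2 ratio of -2.57. Ikzf1, which encodes the lymphoid and myeloid factor Ikaros, had 50.1 TPM in M and 7.77 TPM in MR, a log2 ratio of -2.54. Egr1, an immediate early gene, had 2.99 TPM in M and 7.97 TPM in MR, a log2 ratio of 1.17. Nab2, a co-repressor of EGR factors, had a log2 ratio of -0.68. The other two above 1, named after their values were seen, were Gata2 and Gfi1b, with at most 4.43 TPM in MR.

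Of 13 PU.1 target genes of macrophages and osteoclast precursors, 7 were below -1, 6 between and 0 above 1, with a median of -1.74. Fcgr1 and Fcgr3, which encode IgG receptors, had log2 ratios of -4.24 and -3.34. Ly86, which encodes a partner of an innate immune receptor, had a log2 ratio of -3.07. Adgre1, which encodes the macrophage marker F4/80, had a log2 ratio of -2.20. Csf1r and Tnfrsf11a, named after their values were seen as the receptors for M-CSF and RANKL, had log2 ratios of 0.32 and 0.66. Macrophage markers make up 4 of the 13 genes (Adgre1, Cd68, Csf1r and Fcgr1). Of these, Adgre1 and Fcgr1 were lower in MR, Cd68 had a log2 ratio of -0.26 and Csf1r was higher. The macrophage marker sum, mostly Lyz2, which is not in this list, was 2.73-fold lower in MR. The part of macrophage number in these values was not tested.

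Of the regulators of MITF/TFE, 21 had a value, and 20 of these lay between -1 and 1, with a median of -0.15. Fnip2, whose product acts with folliculin on the Rag GTPases that hold TFE factors in the cytoplasm, was the one below -1, with 92.6 TPM in M and 37.4 TPM in MR. Rragc, which encodes one of these GTPases, had 173 TPM in M and 118 TPM in MR. Map2k6, a kinase gene upstream of p38, had a log2 ratio of -0.84. Ppp3cb, which encodes a catalytic subunit of calcineurin, had a log2 ratio of 0.65. These RNA levels do not measure the location or phosphorylation of the factors.

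The osteoclast and lysosomal targets of MITF/TFE spread in both directions, with 7 of 19 above 1, 5 below -1 and a median of 0.43. Ctsk, which encodes the collagen-degrading protease cathepsin K, had 53.1 TPM in M and 12867 TPM in MR. Acp5, which encodes tartrate-resistant acid phosphatase, had 51.9 TPM in M and 4947 TPM in MR. Atp6v0d2, a subunit gene of the proton pump, had 4.25 TPM in M and 965 TPM in MR. Oscar, which encodes a co-stimulating receptor, had no locus in M and 365 TPM in MR. These 4 are also among the osteoclast markers, and the other three above 1, named after their values were seen, were Atp6v1h, Clcn7 and Ostm1. The 5 below -1, named after their values were seen, were Ctsb, Lamp1, Ctsd, Uvrag and Gpnmb, of which Ctsb had 16083 TPM in M and 3369 TPM in MR.

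Of the other C/EBP family members and C/EBP regulators, 11 had a value, with 5 below -1, 6 between and 0 above 1, and a median of -0.29. Atf3, a stress-induced basic leucine zipper gene, had 408 TPM in M and 44.8 TPM in MR, a log2 ratio of -3.16. Trib1, whose product directs C/EBPα to degradation, had 24.6 TPM in M and 5.44 TPM in MR, a log2 ratio of -1.99. Trib3 and Cebpg had log2 ratios of -1.08 and -1.03. The fifth, named after its value was seen, was Ddit3, with a locus shared with another gene and a log2 ratio of -1.18. Without it the median of the list was -0.08.

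Of the C/EBP targets of myeloid cells, 14 had a value, and 13 of them were lower in MR, with 5 below -1, 0 above 1 and a median of -0.80. Saa3, an acute-phase gene, had 137 TPM in M and 1.34 TPM in MR. Ccl2, which encodes a monocyte chemokine, had 867 TPM in M and 25.1 TPM in MR. Csf3r, which encodes the G-CSF receptor, had 117 TPM in M and 15.3 TPM in MR. Cd14, which encodes the lipopolysaccharide co-receptor, had 55.1 TPM in M and 29.7 TPM in MR, a log2 ratio of -0.87. The other two below -1, named after their values were seen, were Lyz2 and Il1b. Of the 14 genes, 6 are neutrophil markers and 1 is a macrophage marker, and the part of these cells in the lower values was not tested.

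Of the RUNX partners, 10 had a value, with 2 above 1, 8 between, and 0 below -1. Smurf1, which encodes a ubiquitin ligase acting on RUNX2, had 10.6 TPM in M and 60.1 TPM in MR, a log2 ratio of 2.39. Tle1, which encodes a Groucho co-repressor, had 5.11 TPM in M and 19.3 TPM in MR, a log2 ratio of 1.73. Cbfa2t2 and Tle4, both co-repressor genes, had log2 ratios of 0.71 and -0.53. The median of 0.02 turned to -0.15 with median-of-ratios scaling and to -0.01 with FPKM, so that no direction is given for the list.

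**Figure D4:**
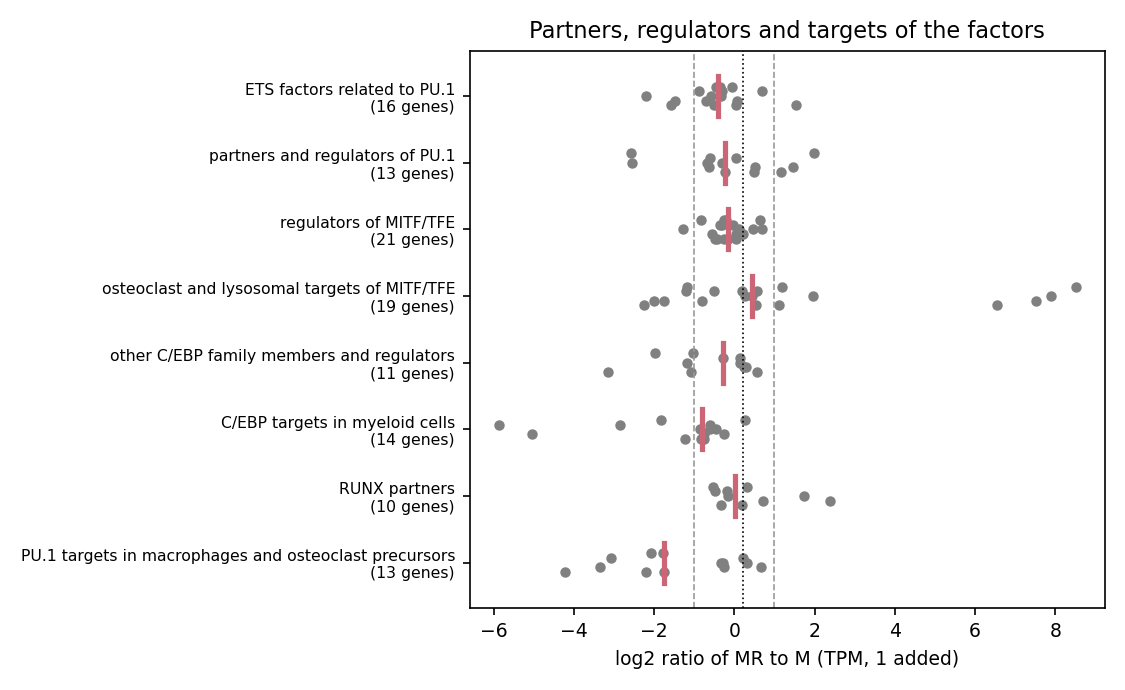
Log2 ratio of MR to M for each gene (points) of the 8 lists of partners, regulators and targets, with the list median as a red bar, the all-gene median of 0.21 as a dotted line and -1 and 1 as dashed lines. The PU.1 target list has the lowest median, -1.74, and the MITF/TFE target list has the highest, 0.43, and the widest spread.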

How the data were processed

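RNA of 2 libraries, 1 of M and 1 of MR, was sequenced as paired reads of 150 bases. The authors trimmed the reads with Trim Galore, aligned them to mm10 (GRCm38) with HISAT2 and ran StringTie on GENCODE vM27. Tool versions and the number of animals are not given in the sources used here. The deposited tables give a TPM, an FPKM and a coverage, a signal of read depth per base, for each assembled locus and for each named entry. The authors' TPM of the assembled loci sums to 1000000 in each library, and the named entries are listed in addition. Named entries hold positions of another build (GRCm39) and were not used.

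Assembled loci were assigned to genes of GENCODE vM21 by the largest number of exon bases shared on that strand, with a minimum of 50. If a locus held 50% or more of the exon bases of another coding gene too, the gene given the locus was called shared. The other gene was left out of the comparisons and lists if it had no locus of its own in that library. TPM was summed per gene, and a gene without a locus was set to 0. In M, 15665 of 19422 loci with 95.4% of the TPM were given to genes, and in MR 16523 of 19922 loci with 96.9%. Genes that reached a TPM of 1 in M or MR were compared, and lists also used shared loci. The assignment of loci and the log2 ratios were run on simulated near full-length loci with a strand and without counting noise. Fragments, loci without a strand, read pairs and intervals were not part of that simulation. Aligned bases were read from the modal value of coverage divided by FPKM, over loci above an FPKM of 5. Read pairs of a gene were estimated as the smaller of the number its FPKM gives and the number its coverage gives, at 300 bases a pair, with transcripts of at least 1000 bases. They gave the 95% Wilson intervals, which leave out differences between cultures. With 1 library per condition no test across genes was made. Promoters are those of RefSeq (GRCm38.p6). Of each list, the 4 genes with the largest absolute log2 ratio among those with a TPM of at least 5 and a locus of their own were named, and others are marked where named. The members and lists were chosen with earlier results of these data known. Alternatives were a pseudocount of 0.1, other filters and thresholds, FPKM, coverage, median-of-ratios scaling, and TPM rescaled after removal of mitochondrial transcripts and of the 20 genes with the highest TPM. Values were computed in Python 3.11.15 with scipy 1.17.1, pandas 2.3.3 and numpy 2.4.6, and plots were drawn with matplotlib 3.10.9.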

Additional observations from a re-analysis of the deposited data

Results flagged for a closer look

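A locus outside the comparisons overlapped the Runx2 gene body, but not the assembled Runx2 loci, and stood well above its level in M. Supt3, on the opposite strand to Runx2, overlaps 37518 bases of the Runx2 gene body in M and 37475 in MR, and had 7.39 TPM in M and 35.9 TPM in MR, a log2 ratio of 2.14. Runx2 had 2.14 TPM in M and 2.71 TPM in MR on an estimated 18 and 14 read pairs, and its ratio has an interval from 0.639 to 2.51.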

How the results depend on the processing

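Of 144 alternative values, 15 moved by more than the spread used for that value (counting error for a factor, 1.5 times for a count of genes, the spread over genes for a list median), and 0 reversed a called value. The other 129 include changes of sign in values that were not called. The RUNX partner median turned from 0.02 to -0.01 with FPKM and to -0.15 with median-of-ratios scaling. That scaling also put the median at -0.42 for the partners of PU.1, -0.33 for the regulators of MITF/TFE, 0.24 for the MITF/TFE targets and -0.45 for the other C/EBP genes and regulators. Without the shared locus of Ddit3 the median of the last of these lists was -0.08. Median-of-ratios scaling put the log2 ratio at 0.55 for Spi1, -0.71 for Tfe3, -2.10 for Cebpa and -1.62 for Cebpb. Spi1 was at 0.61 after mitochondrial transcripts and the 20 genes with the highest TPM were removed. Coverage per aligned Gb gave 2.23 for Tfeb, opposite in sign to its TPM value, and -0.16 for Tfe3. Tfec, the factor above 1, fell below that limit with FPKM (0.96), median-of-ratios scaling (0.87), coverage (0.90) and without the abundant genes (0.93). The count of factors above the limit was thus 0 with FPKM and 0 with median-of-ratios scaling, and with coverage the 1 factor above it was Tfeb. At a log2 threshold of 2 there were 0 factors above and 0 below. Of all genes, 959 were above and 521 below at that threshold, and 1600 and 983 with a TPM of at least 10, against 2861 and 1784. The share of calls above was 61.6%, and 53.1% with median-of-ratios scaling. Runx2 was at -0.25 from its highest locus alone. Leaving out loci without a strand gives no value for Cebpb and Cebpd. No paired analysis was possible because each condition is 1 library, and for the same reason no replicate could be left out.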
